A study of Mus musculus with 6 samples.

Results

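The unfolded protein response is described here through 10 genes that sense or carry it, Ern1, Eif2ak3, Atf6, Xbp1, Atf4, Ddit3, Trib3, Chac1, Asns and Ppp1r15a, in aortic vessels of mice with and without miRNA-26b. The genes are defined by name and role, a rule that uses no measured value, although it was drawn up with earlier results of these data known, and all 10 were found among the 55341 genes of the count table. RNA-seq libraries came from 3 miRNA-26b-/- and 3 miRNA-26b+/+ mice, aged 8 weeks and kept on chow, and the labels give the strain as C57BL/6NCrl. No treatment is named apart from the tamoxifen used to make the deletion. The targeted allele was made in embryonic stem cells of a 129/Sv background (line R1/E), where the miRNA-26b sequence in an intron of Ctdsp1 was flanked by loxP sites. The flanked sequence was removed by crossing to CreERT2 mice and giving tamoxifen, and CreERT2 was afterwards bred out. Neither the labels nor the methods say whether the miRNA-26b+/+ mice were littermates. By the labels the material was aortic endothelium, whereas the methods describe whole aortic arch and thoracic aorta after perfusion with phosphate buffered saline. Libraries are called KO1 to KO3 and WT1 to WT3 below.

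Secreted and membrane proteins fold in the endoplasmic reticulum (ER), and when unfolded protein accumulates there, 3 sensors in its membrane start the unfolded protein response. IRE1, encoded by Ern1, cuts a short intron out of Xbp1 mRNA in the cytoplasm so that an active transcription factor can be made, ATF6 is cleaved in the Golgi to release a transcription factor, and PERK, encoded by Eif2ak3, phosphorylates the initiation factor eIF2. Phosphorylated eIF2 slows translation in general but favours that of Atf4, whose protein turns on genes of amino acid supply and, with CHOP (Ddit3), genes tied to cell death. The response has been studied in the vessel wall mainly in macrophages, endothelium and smooth muscle of atherosclerotic lesions.

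The 5p arm of the miRNA deleted in miRNA-26b-/- mice is shown first because its seed, bases 2 to 8, sets which transcripts it can pair with. The deletion also takes the 3p arm, whose seed differs and was not searched for. The seed stands in capitals, and miR-26a-5p, which shares it and is encoded elsewhere in the genome, is set beside it (RefSeq sequences).
miR-26b-5p: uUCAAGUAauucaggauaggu
miR-26a-5p: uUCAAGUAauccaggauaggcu
A search of the longest annotated 3′ UTR of each member for a match to this seed (the letters TACTTGAA, TACTTGA or ACTTGAA, on the sense strand, where a TACTTGAA also contains the shorter words and was counted once) found matches in Atf6 and Chac1. The other 8 members held none of these letters in that window, and 18.3% of the 20998 genes with a 3′ UTR held at least 1 match. The matches are printed with the paired letters in capitals and coordinates on GRCm38, Atf6 on the minus strand and Chac1 on the plus strand.
Atf6, chr1:170709438-170709460: gaatgttaTACTTGAgaaaacac
Atf6, chr1:170706548-170706570: taactgtcACTTGAAaacagagg
Chac1, chr2:119353639-119353661: gtatgcagTACTTGAgatagact
Chac1, chr2:119353764-119353787: ttactcacTACTTGAAcctttatt
The last of these is the longest word searched, which 4.19% of the genes held. A match of letters is a description and was not tested for binding.

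The libraries held 25706728 to 33345037 counts assigned to genes, and 16017 genes were expressed highly enough to test. Levels below are in CPM, the counts-per-million unit, here taken over the TMM-scaled total of each library. Differences are log2 fold changes of miRNA-26b-/- over miRNA-26b+/+ from edgeR's quasi-likelihood test, with adjusted p under 0.05 as the threshold. The deleted gene could not be checked well at this library type, since Mir26b had 0 counts in KO1, KO2, KO3, WT1 and WT3 and 20 in WT2. Smooth muscle markers summed to 30609 to 41136 CPM per library and endothelial markers to 449.9 to 1695 CPM, so smooth muscle marker RNA exceeded endothelial marker RNA in every library. Such sums depend on the genes chosen and do not measure the share of RNA from each cell type. Fewer cells of a type and less RNA per cell cannot be told apart in such samples. KO2 and WT2 held the most RNA of sympathetic neurons (253.3 and 51.1 CPM summed, against 8.36 to 21.97 CPM in the others). The same 2 libraries held the most RNA of cardiac muscle (309.3 and 256.8 CPM summed), adipocytes (1538 and 1098 CPM) and brown adipocytes (440.8 and 391.5 CPM). Of the 5 sympathetic neuron markers tested, 3 had an unadjusted p under 0.05, all higher in miRNA-26b-/- mice, beside 3.4% of all genes. For these 3 (Th, Tubb3 and Snap25) only KO2 was high, and KO1 and KO3 lay below WT2. KO1 and KO2 held less endothelial marker RNA (449.9 and 470.5 CPM) than the other 4 libraries (1187 to 1695 CPM). Of the 8 endothelial markers, 1, Tek, was lower in miRNA-26b-/- mice at an unadjusted p under 0.05, beside 3.07% of all genes. Schwann cell markers summed to 297.6 to 454.6 CPM in miRNA-26b-/- and 213.8 to 266.8 CPM in miRNA-26b+/+ mice. An unadjusted p under 0.05 was reached by 6 of 7 Schwann cell and 5 of 6 skeletal muscle markers. All of them were higher in miRNA-26b-/- mice, as were 3.4% of all genes at that threshold. The part of these differences in the results below was not tested, beyond the values given without single libraries.

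None of the 10 members differed between miRNA-26b-/- and miRNA-26b+/+ mice at an adjusted p under 0.05, where 0.00624% of all genes tested did. At an unadjusted p under 0.05 the count was also 0 of 10 in edgeR's quasi-likelihood test, beside 6.47% of all genes. No member had groups that did not overlap, beside 11.5% of all genes (5.65% higher and 5.88% lower in miRNA-26b-/- mice). Estimates were higher in miRNA-26b-/- mice for 6 members and lower for 4, with a median log2 fold change of 0.05 against 0.01 over all genes tested. That median had no steady direction, at -0.12 without KO1 and 0.14 without KO2. Other tools and normalizations gave 0 members past the adjusted threshold and 0 or 1 at an unadjusted p under 0.05.

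**Figure D1:**
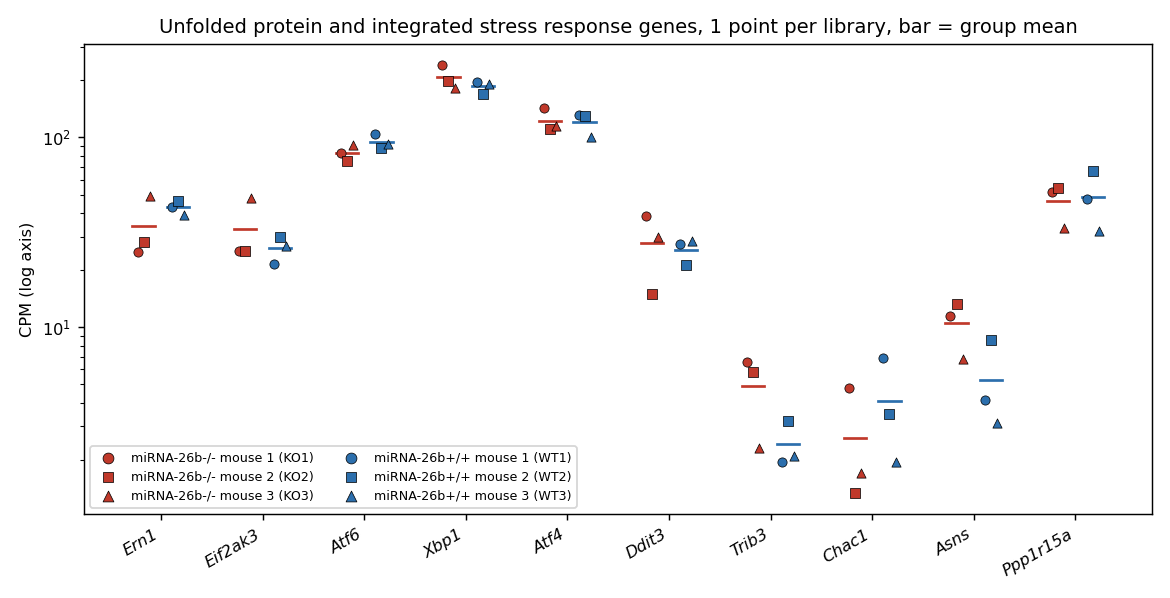
CPM on a log axis of each of the 10 members in every library, with KO1 to KO3 (miRNA-26b-/-, red) beside WT1 to WT3 (miRNA-26b+/+, blue), 1 marker shape per mouse number and a bar at the mean of each group. The 2 groups overlap for every gene.

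The 3 sensors were measured as follows. Ern1, the gene for the kinase and nuclease IRE1 (ENSMUSG00000020715, chr11:106394650-106487852 on GRCm38, minus strand, 22 exons), had 24.9, 28.1 and 49.1 CPM in KO1, KO2 and KO3 and 43.0, 46.5 and 38.9 CPM in WT1, WT2 and WT3. KO1 and KO2 lay below every miRNA-26b+/+ library and KO3 above every one. The means were 34.1 ± 13.2 and 42.8 ± 3.76 CPM (SD, n = 3 each), and the log2 fold change was -0.33 (SE 0.257, 95% interval -0.88 to 0.22, adjusted p = 0.883 by edgeR's quasi-likelihood test). The 2 libraries low in Ern1 were also the 2 lowest in endothelial and in macrophage markers (295.6 and 359.8 CPM for the latter). They were the 2 highest in Schwann cell markers (454.6 and 452.6 CPM) and in skeletal muscle markers (30.7 and 88.3 CPM). The part of these in the Ern1 values was not tested. Without KO3 the difference was -0.68 with an unadjusted p of 0.0110 and an adjusted p of 0.281, and without KO1 the difference was -0.17, so single libraries moved the estimate by more than 1.5 times in either direction.

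Eif2ak3, the gene for the eIF2 kinase PERK (ENSMUSG00000031668, chr6:70844515-70905245, plus strand, 17 exons), had 25.3, 25.3 and 48.1 CPM in the miRNA-26b-/- libraries and 21.4, 29.9 and 26.9 CPM in the miRNA-26b+/+ libraries. KO3 alone stood out, and the other 5 libraries lay between 21.4 and 29.9 CPM. KO3 also held the highest sums of fibroblast markers (20604 CPM, against 11190 to 14198 CPM elsewhere) and macrophage markers (844.8 CPM, against 295.6 to 566.4 CPM), and their part in the result was not tested. The log2 fold change was 0.34 (SE 0.290, 95% interval -0.28 to 0.95, adjusted p = 0.898 by edgeR's quasi-likelihood test), and without KO3 it was -0.04. An 8.05% share of its exon length overlaps Gm43292 on the opposite strand, and since reads were counted without regard to strand, reads there cannot be told apart.

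Atf6, the sensor that is itself a transcription factor precursor (ENSMUSG00000026663, chr1:170704674-170867771, minus strand, 16 exons), was the steadiest of the members, with a coefficient of variation of 11.03% over the 6 libraries against a median of 28.6% for all genes tested. It had 83.2, 74.7 and 91.7 CPM in miRNA-26b-/- and 103.9, 87.5 and 92.7 CPM in miRNA-26b+/+ libraries, so KO3 lay inside the range of the wild types. This member, which holds a pair of seed matches, had a log2 fold change of -0.19 (SE 0.167, 95% interval -0.55 to 0.17, adjusted p = 0.904 by edgeR's quasi-likelihood test). The interval reaches from a fold of 0.684 to 1.12, and the estimate ran from -0.27 without KO3 to -0.12 without KO2.

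The transcription factors downstream of the sensors came next. Xbp1 (ENSMUSG00000020484, chr11:5520659-5525893, plus strand, 5 exons) had the highest level of the members, with 239.7, 198.5 and 182.7 CPM in KO1 to KO3 and 196.4, 169.3 and 191.1 CPM in WT1 to WT3. KO1 was the highest library and the other 5 spanned 169.3 to 198.5 CPM. Between the groups Xbp1 differed by a log2 fold change of 0.16 (SE 0.151, 95% interval -0.17 to 0.48, adjusted p = 0.923 by edgeR's quasi-likelihood test), which was 0.037 without KO1 and 0.24 without KO3. What the protein does depends on a 26-base intron that IRE1 removes, printed here because a count per gene holds cut and uncut mRNA together. It lies in exon 4 at chr11:5524282-5524307, with the motif that ends it in capitals.
Xbp1 intron: cactcagactatgtgcacctCTGCAG
IRE1 activity was therefore not measured by the Xbp1 values.

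Atf4, the factor translated when eIF2 is phosphorylated (ENSMUSG00000042406, chr15:80255184-80257541, plus strand, 4 exons), had 142.3, 111.1 and 114.4 CPM in miRNA-26b-/- and 130.8, 129.1 and 100.6 CPM in miRNA-26b+/+ libraries. The group means lay close together, 122.6 ± 17.1 and 120.2 ± 17.01 CPM (SD, n = 3 each). The log2 fold change was 0.03 (SE 0.170, 95% interval -0.34 to 0.39, adjusted p = 0.992 by edgeR's quasi-likelihood test), which leaves room for folds of 0.792 to 1.31. Since its control is largely at translation, its mRNA level reports only part of its output.

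Ddit3, which encodes the factor CHOP (ENSMUSG00000025408, chr10:127290774-127296288, plus strand, 4 exons), had 38.3, 14.9 and 29.8 CPM in KO1 to KO3 and 27.3, 21.4 and 28.3 CPM in WT1 to WT3. The miRNA-26b-/- libraries held both its highest and its lowest value. For Ddit3 the log2 fold change was 0.07 (SE 0.315, 95% interval -0.60 to 0.74, adjusted p = 0.991 by edgeR's quasi-likelihood test), and the estimate was -0.05 with limma voom. A second Ensembl identifier, ENSMUSG00000116429, carries the same name and was counted with it, and 3.97% of its exon length overlaps Mars, the gene of methionyl-tRNA synthetase, on the opposite strand.

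**Figure D2:**
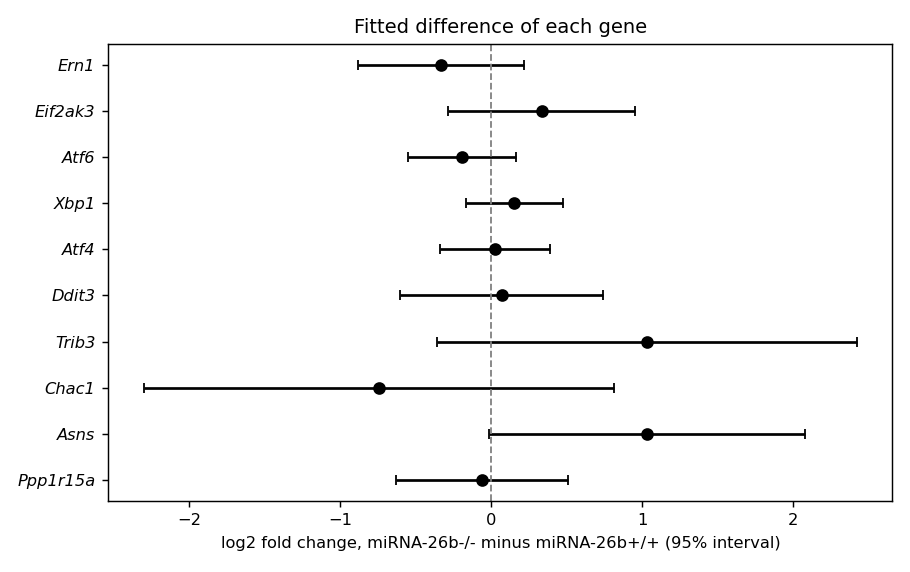
Log2 fold change of each member, miRNA-26b-/- over miRNA-26b+/+, with its 95% interval from edgeR's quasi-likelihood fit. All 10 intervals include 0, and that of Asns runs from -0.01 to 2.08.

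Trib3, Chac1 and Asns, effectors that ATF4 turns on, were the least abundant members and had the widest intervals. Asns, which makes asparagine (ENSMUSG00000029752, chr6:7675169-7693254, minus strand, 12 exons), had 11.4, 13.3 and 6.81 CPM in miRNA-26b-/- and 4.11, 8.56 and 3.14 CPM in miRNA-26b+/+ libraries. WT2 exceeded KO3, which is the only overlap of the groups. The means were 10.5 ± 3.32 and 5.27 ± 2.89 CPM (SD, n = 3 in either group). On the log2 scale the difference was 1.03 (SE 0.489, 95% interval -0.01 to 2.08, unadjusted p = 0.0523 and adjusted p = 0.769 by edgeR's quasi-likelihood test). Within each group Asns was highest in KO2 and WT2. These libraries were also the richest of their groups in sympathetic neuron, cardiac muscle, skeletal muscle, adipocyte and brown adipocyte markers. The part of these tissues in the Asns values was not tested. Without WT2 the log2 fold change was 1.55 and without KO3 it was 1.26, with unadjusted p-values of 0.0209 and 0.0203. Without WT3 it was 0.76, and the adjusted p was no lower than 0.345 in any of the alternatives run.

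Trib3, a pseudokinase that ATF4 and CHOP induce and that inhibits AKT (ENSMUSG00000032715, chr2:152337422-152344032, minus strand, 4 exons), had 6.53, 5.84 and 2.30 CPM in KO1 to KO3 and 1.96, 3.21 and 2.08 CPM in WT1 to WT3. KO1 and KO2 lay above every miRNA-26b+/+ library, whereas KO3 lay below WT2. KO1 and KO2 were also the highest in Schwann cell markers (454.6 and 452.6 CPM) and skeletal muscle markers (30.7 and 88.3 CPM). The same libraries were the lowest in endothelial (449.9 and 470.5 CPM) and macrophage markers (295.6 and 359.8 CPM). The part of these in the Trib3 values was not tested. The Trib3 values rest on 60 to 196 counts per library. The log2 fold change was 1.03 (SE 0.651, 95% interval -0.36 to 2.42, adjusted p = 0.838 by edgeR's quasi-likelihood test), and without KO3 it was 1.36 with an unadjusted p of 0.0492 and an adjusted p of 0.459.

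Chac1, which degrades glutathione (ENSMUSG00000027313, chr2:119351229-119354381, plus strand, 3 exons), had 4.77, 1.34 and 1.70 CPM in miRNA-26b-/- and 6.85, 3.50 and 1.95 CPM in miRNA-26b+/+ libraries. The highest library of each group reached over 1.5 times the next one, and the coefficient of variation over the 6 libraries, 64.0%, was the largest among the members. The log2 fold change of this gene, whose 3′ UTR holds the longest seed match found, was -0.74 (SE 0.730, 95% interval -2.30 to 0.82, adjusted p = 0.924 by edgeR's quasi-likelihood test). Without WT1 it was -0.12 and without KO1 -1.45.

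Ppp1r15a, the gene for GADD34, which guides a phosphatase to eIF2 and ends the translational block (ENSMUSG00000040435, chr7:45522916-45526268, minus strand, 3 exons), had 51.7, 54.1 and 33.5 CPM in miRNA-26b-/- and 47.4, 66.9 and 32.1 CPM in miRNA-26b+/+ libraries. KO3 and WT3 were the lowest of their groups and lay close to each other. For Ppp1r15a the log2 fold change was -0.06 (SE 0.267, 95% interval -0.63 to 0.51, adjusted p = 0.991 by edgeR's quasi-likelihood test).

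Exact permutation tests of the CPM values gave two-sided p-values of 0.2 for Atf6, Trib3 and Asns and of 0.4 or more for the others, where 3 against 3 mice cannot go below 0.1. Per kilobase of exon, which allows genes to be compared in level, the order was led by Xbp1 at a mean of 60.4 CPM per kilobase and Atf4 at 51.5. These overlapped, with Atf4 above Xbp1 in WT2 (54.8 against 52.1). Ppp1r15a at 16.2 and Ddit3 at 15.6 followed and overlapped widely over the libraries. Atf6 stood at 9.64, and its highest value (11.3) exceeded the lowest of Ddit3 (8.68). Eif2ak3 at 4.89 and Ern1 at 4.70 overlapped each other. Asns at 2.88, Chac1 at 2.05 and Trib3 at 1.72 CPM per kilobase closed the order and overlapped as well. The highest values of Asns (4.85) and Chac1 (4.19) exceeded the lowest of Eif2ak3 (3.55) and Ern1 (3.05).

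**Figure D3:**
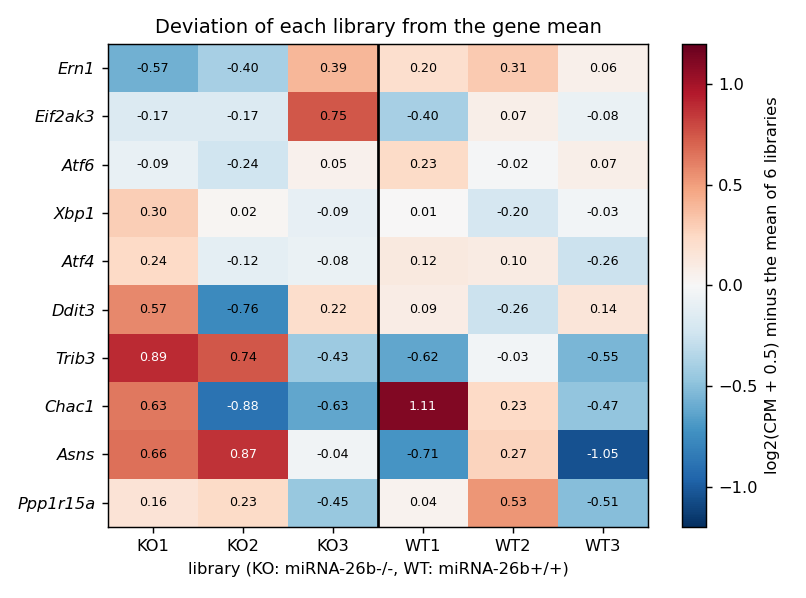
Deviation of each member's log2(CPM + 0.5) in each library from its mean over the 6 libraries, written in the cells and coloured from blue (low) to red (high). KO1 holds the highest value for 4 members (Xbp1, Atf4, Ddit3 and Trib3), and KO3 for 2 (Ern1 and Eif2ak3).

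The members did not move as a block over the libraries. KO1 was highest for Xbp1, Atf4, Ddit3 and Trib3 and lowest for Ern1, whereas KO2 was highest for Asns and lowest for Atf6, Ddit3 and Chac1. Of the 45 pairs of members, 5 had a permutation p under 0.05 for Pearson's r and 0 passed after Benjamini-Hochberg adjustment, with a smallest adjusted permutation p of 0.219. These 5 were Atf6 with Trib3 (r = -0.867), Ern1 with Xbp1 (-0.846), Trib3 with Asns (0.896), Atf6 with Asns (-0.843) and Ern1 with Trib3 (-0.868). Trib3 and Asns, both ATF4 targets, had rho = 0.886 (exact permutation p = 0.0292 for r and 0.0333 for rho, adjusted p = 0.359 for r). Without the 2 libraries farthest from the median their r was 0.842. Both were higher in miRNA-26b-/- libraries on average, so this relation spans the groups. Chac1, also an ATF4 target, had r = -0.101 with Trib3 and -0.187 with Asns. Atf4 itself had r = 0.367 with Trib3 and 0.396 with Asns.

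The genes whose levels followed the transcription factors most closely over the 6 libraries, among 11680 genes, were Rps24 (r = 0.988), Gm19918 (0.982) and Tank (0.982) for Xbp1. For Atf4 they were Pogk (0.991), Gpbp1l1 (0.987) and Gm49797 (0.984). For Ddit3 they were Dtd1 (0.988), Hbb-bs (0.985) and Gm16096 (0.984). Hbb-bs is a haemoglobin gene, and the summed erythroid markers, 85.7 CPM in KO2 and 354.5 to 930.4 CPM in the other libraries, followed an order like that of Ddit3. All genes of a library share its preparation and depth. The highest of 11680 correlations over 6 points are therefore given as a description.

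The promoters of the members were searched for the elements through which the response works, since members that share one can be read together. RefSeq promoters on GRCm38, 250 bases before to 50 after the start, were found for 9 of 10 members, all but Atf6. The core of the element bound by ATF4 with C/EBP factors, TGATGNAA on either strand, was held by Trib3, Chac1 and Asns and by 3.97% of all promoters. It is shown in capitals, reversed in Trib3 and Chac1.
Trib3, chr2:152344028-152344057: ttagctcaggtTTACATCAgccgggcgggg
Chac1, chr2:119351038-119351067: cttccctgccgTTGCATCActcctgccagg
Asns, chr6:7693214-7693243: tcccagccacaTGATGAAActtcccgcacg
The 3 genes with the element are the 3 lowest in level, and their differences did not share a direction (log2 fold changes of 1.03, -0.74 and 1.03 for Trib3, Chac1 and Asns). The ER stress element, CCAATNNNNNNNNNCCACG, and the core of the unfolded protein response element, GACGTGG, were held by 0 of the 9.

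The genes that act with the members were taken from lists drawn up by function, and 0 genes of any list passed the adjusted threshold in edgeR's quasi-likelihood test. Under the alternatives run, the listed genes that passed it were 4 heat shock genes and Junb, given below. The chaperones and folding factors of the ER, the main targets of ATF6 and spliced XBP1, had lower estimates in miRNA-26b-/- mice for 16 of 18 genes, with a median log2 fold change of -0.22 against 0.01 over all genes. At an unadjusted p under 0.05, 7 of the 18 were lower and 0 higher, beside 3.07% of all genes tested that were lower. The groups did not overlap for 6 of them, all lower, beside 5.88% of all genes. Without KO2 the count at an unadjusted p under 0.05 was 2 of 18, and without both KO2 and WT2 it was 0 of 18. The median log2 fold change stayed near its size there, -0.19 with 15 of 18 lower without KO2 and -0.21 with 16 of 18 lower without both.

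Hspa5, which encodes BiP, the chaperone that holds the 3 sensors inactive, had 899.7, 567.0 and 792.6 CPM in miRNA-26b-/- and 1058, 1079 and 1197 CPM in miRNA-26b+/+ libraries. All 3 miRNA-26b-/- libraries lay below the others, with KO2 lowest, and the log2 fold change was -0.56 (SE 0.157, unadjusted p = 0.00278, adjusted p = 0.731 by edgeR's quasi-likelihood test). Hsp90b1, the ER chaperone GRP94, had 610.1, 485.0 and 691.7 CPM against 757.1, 805.2 and 829.3 CPM, a log2 fold change of -0.42 with an adjusted p of 0.736. Hyou1, an exchange factor for BiP, had 144.9, 122.7 and 170.8 CPM against 185.6, 197.9 and 229.3 CPM (-0.49, adjusted p = 0.736). KO2 was the lowest library for each of these chaperones. Pdia4, a disulfide isomerase, had 108.8, 108.1 and 140.0 CPM against 162.8, 164.8 and 168.2 CPM (-0.48, adjusted p = 0.736). Manf, Creld2 and Pdia3 were the other genes lower at an unadjusted p under 0.05.

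**Figure D4:**
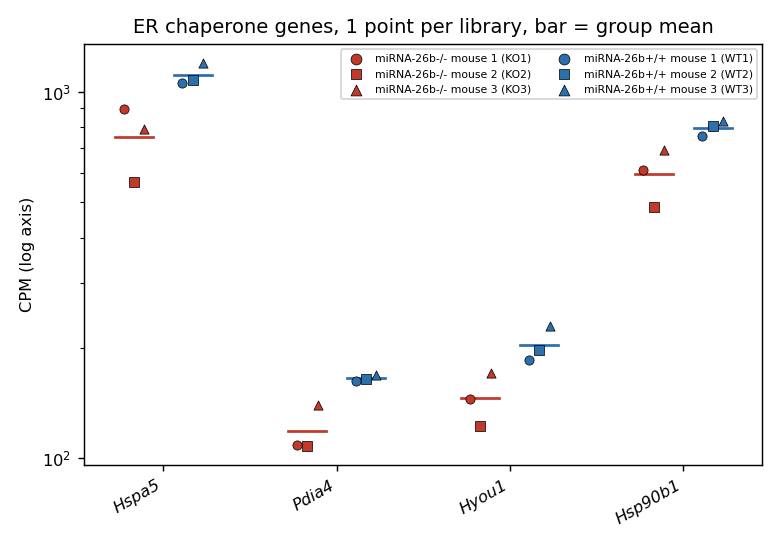
CPM on a log axis of the 4 ER chaperones and folding factors with the smallest unadjusted p, in every library (miRNA-26b-/- in red, miRNA-26b+/+ in blue), with a bar at the mean of each group. For Hspa5, Hsp90b1, Hyou1 and Pdia4 all 3 miRNA-26b-/- libraries lie below all 3 miRNA-26b+/+ libraries.

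The ER stress element that no member held was found in the promoter of 7 of the 15 listed chaperone genes with a RefSeq promoter (46.7%), against 0.119% of all promoters. The list holds main targets of ATF6 and spliced XBP1, so a high share follows from its choice and is a description only. The copies in Hspa5 and Creld2 and 1 of the 2 in Hsp90b1 are printed with the element in capitals, reversed in Creld2.
Hspa5, chr2:34772020-34772048: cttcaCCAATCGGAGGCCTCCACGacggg
Hsp90b1, chr10:86705633-86705661: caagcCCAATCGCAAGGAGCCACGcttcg
Creld2, chr15:88819515-88819543: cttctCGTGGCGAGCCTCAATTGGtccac
Of the 7 genes lower at an unadjusted p under 0.05, 5 had a promoter in the table and 3 of these held the element, and of the other 11 genes, 10 had a promoter and 4 held it.

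Heat shock genes, which respond to misfolded protein outside the ER, had a median log2 fold change of -0.62, and 7 of 12 were lower at an unadjusted p under 0.05, beside 3.07% of all genes. The list is mostly cytosolic, but Hspd1, 1 of the 7, and Hspe1 encode mitochondrial chaperonins. Hspb1, a small heat shock protein, was the closest to the threshold of any listed gene (-0.93, unadjusted p = 1.03e-05, adjusted p = 0.0822 by edgeR's quasi-likelihood test). It passed in 5 of 19 alternatives, with an adjusted p of 1.13e-07 by DESeq2, 0.000499 by the likelihood ratio test, 0.0229 with robust shrinkage, 0.0306 by limma voom and 0.00485 without KO3. Hspa8, Hsp90ab1 and Hsph1, cytosolic chaperones, passed by DESeq2 (adjusted p of 0.00559, 0.00169 and 0.0204), and Hspa8 also without KO3 (0.0132). Immediate early genes, which mark acute stimulation of a tissue, gave 2 of 14 lower at an unadjusted p under 0.05, Junb and Egr2, beside 3.07% of all genes. Their median of -0.20 had no steady direction, since it was 0.31 without WT2, 0.20 without both KO2 and WT2, and -0.42 without WT3. Without KO3, Junb had an adjusted p of 0.0319.

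**Figure D5:**
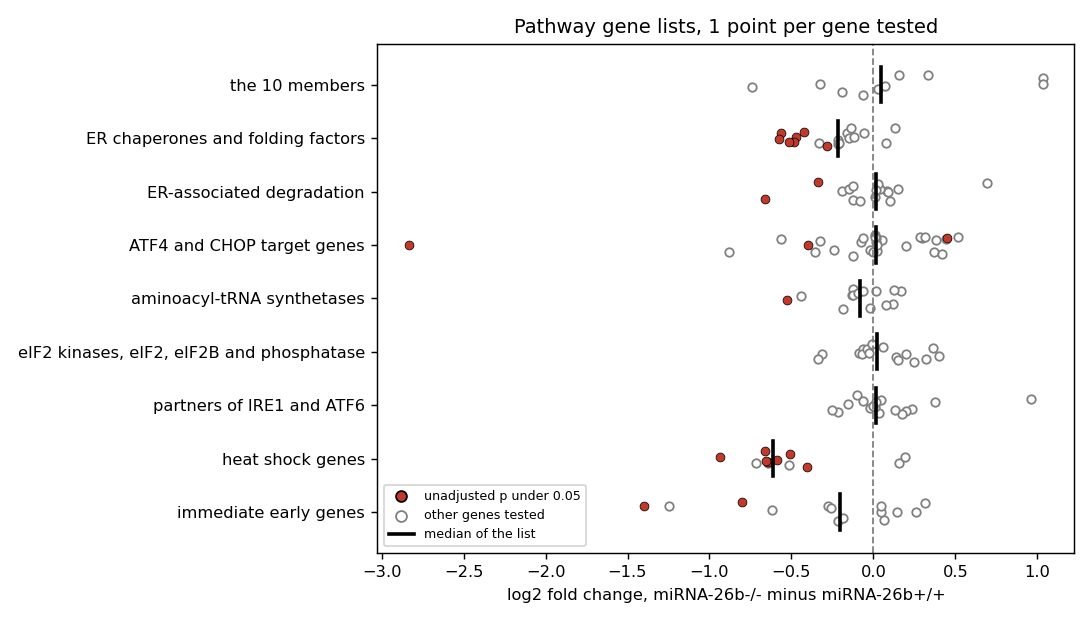
Log2 fold change of every tested gene in each list, miRNA-26b-/- over miRNA-26b+/+, with the median of the list as a bar and genes of an unadjusted p under 0.05 filled. The medians of the ER chaperones (-0.22) and the heat shock genes (-0.62) lie below 0, whereas that of the members is 0.05.

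Genes of ER-associated degradation, which return misfolded proteins to the cytosol, gave 2 of 16 lower and 0 higher at an unadjusted p under 0.05, beside 3.07% and 3.4% of all genes, with a median of 0.01. The count was 1 under several other normalizations and tests. Selenos, a subunit of that machinery, had 56.0, 41.6 and 44.9 CPM in miRNA-26b-/- and 82.5, 63.6 and 78.1 CPM in miRNA-26b+/+ libraries (log2 fold change -0.66, unadjusted p = 0.00408 by edgeR's quasi-likelihood test). Sel1l, an adaptor of the ligase complex, had a log2 fold change of -0.34, and its groups overlapped.

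Estimates for the other target genes of ATF4 and CHOP lay on both sides of 0. Of 32 listed, 29 were tested, 17 with higher and 12 with lower estimates. The median was 0.01, and -0.07 with 17 lower and 12 higher without KO2. At an unadjusted p under 0.05, 1 was higher and 2 were lower, beside 3.4% and 3.07% of all genes. Nupr1, a stress-induced chromatin protein, had 245.2, 220.3 and 179.4 CPM in miRNA-26b-/- and 151.5, 130.5 and 189.6 CPM in miRNA-26b+/+ libraries (log2 fold change 0.45, unadjusted p = 0.0201 by edgeR's quasi-likelihood test). Slc3a2, the heavy chain of an amino acid transporter, had 61.9, 54.1 and 64.9 against 78.5, 90.8 and 68.7 CPM (-0.40). Cth, which makes cysteine, was counted 0, 25 and 0 times in KO1 to KO3 and 28, 79 and 75 times in WT1 to WT3. The core of the ATF4 element stood in the promoter of 8 of the 26 listed genes with a promoter (30.8%). On the tRNA synthetase list it stood in 5 of 9 (55.6%), beside 3.97% of all promoters. Both lists were drawn up as ATF4 targets, so high shares follow from that choice and are a description only.

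The list of aminoacyl-tRNA synthetase genes, which ATF4 also turns on, held 14 genes, among them Xpot, a tRNA export receptor. Of these 14, 1 was lower at an unadjusted p under 0.05, beside 3.07% of all genes. The median was -0.08, and 0.01 without WT3. That gene, Iars, had 35.9, 45.8 and 46.0 CPM in miRNA-26b-/- and 58.0, 61.3 and 65.4 CPM in miRNA-26b+/+ libraries. A list of 16 genes held the other eIF2 kinases, eIF2, its exchange factor eIF2B and its phosphatase, with the associated genes Gcn1l1, Impact and Nck1. It gave 0 at an unadjusted p under 0.05 in edgeR's quasi-likelihood test and a median of 0.02. Eif2s2 (0.32) and Eif2s1 (-0.32), both subunits of eIF2, had the smallest p-values. The partners of IRE1 and ATF6 gave 0 of 17 tested and a median of 0.01, with the smallest p-values for Bcl2 (0.38) and Bcl2l11 (0.96), which act for and against survival.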

How the data were processed

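RNA of aortic vessels from 3 miRNA-26b-/- and 3 miRNA-26b+/+ mice was sequenced, and the authors deposited whole-number counts per gene, made with STAR and featureCounts 1.6.4 on GRCm38 with a GENCODE annotation (release M21 per the file header, whereas the methods name another release), per exon, grouped by gene name, without strand, with reads counted for every gene they overlap. A deposited table of normalized values and of the authors' own comparison was not used. Groups follow the labels, which carry no replicate numbers, batch or litter. The p-values set the difference of the groups against the spread between these libraries, and an effect of batch or litter could not be separated.

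Genes were kept when they summed to at least 2 counts and exceeded 1 CPM in 2 or more libraries, and were fitted with edgeR 4.0.16 (R 4.3.3; TMM, quasi-likelihood test, prior count 0.125, Benjamini-Hochberg over all genes tested). Totals of 25706728 to 33345037 counts per library set the precision, and intervals are 95% from the fit. Alternatives used limma 3.58.1, DESeq2 1.42.0, other edgeR normalizations and tests, other filters, a prior count of 2 and the omission of libraries. The members and gene lists were chosen with earlier results of these data known. Besides the members, the text names in each list the genes of an unadjusted p under 0.05, described for at most 4 of smallest p, or else the 2 of smallest p, and for Xbp1, Atf4 and Ddit3 the 3 genes of highest Pearson r in log2(CPM + 0.5) at a mean of at least 5 CPM. Creld2 was printed for its promoter after its values were seen, and Manf and Pdia3 complete a count. Fits were tested on simulated data.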

Additional observations from a re-analysis of the deposited data

How the results depend on the processing

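The count of members past the adjusted threshold was 0 under all 19 alternatives. At an unadjusted p under 0.05 it was 1 (Asns) with library-size normalization, limma voom, robust shrinkage and no filter beyond 2 counts, and 0 to 3 when 1 library was left out. Over all genes, the adjusted count of 1 became 57 with DESeq2, 19 with the likelihood ratio test, 3 with limma voom and robust shrinkage, and 0 with the earlier quasi-likelihood method, and 0 to 82 when 1 library was left out, with 82 without KO3. The unadjusted count of 1036 ranged from 686 to 1692 when 1 library was left out.

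At an unadjusted p under 0.05, leaving out 1 library gave 2 to 7 ER chaperones, 1 to 2 genes of ER-associated degradation, 0 to 3 ATF4 and CHOP targets, 0 to 1 tRNA synthetases, 0 to 1 genes of the eIF2 list, 0 to 1 partners of IRE1 and ATF6, 6 to 9 heat shock genes and 0 to 4 immediate early genes. Genes of ER-associated degradation numbered 1 with library-size normalization, DESeq2 size factors, the likelihood ratio test, the earlier method and no filter. Targets of ATF4 and CHOP numbered 1 with DESeq2 and the likelihood ratio test, and immediate early genes 1 with DESeq2, limma voom, the likelihood ratio test and the earlier method.

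Without KO2 and WT2, an alternative chosen after seeing the data, 0 genes passed the adjusted threshold and 607 had an unadjusted p under 0.05, among them 0 ER chaperones, 1 gene of ER-associated degradation, 0 tRNA synthetases and 0 immediate early genes, while the median of the ER chaperones was -0.21 with 16 of 18 lower. Log2 fold changes changed sign for Ppp1r15a there (0.093) and for Ddit3 with limma voom (-0.049). Leaving out 1 library gave -0.096 to 0.094 for Atf4, -0.23 to 0.40 for Ddit3, -0.038 to 0.51 for Eif2ak3 and -0.30 to 0.23 for Ppp1r15a. It also gave 0.037 to 0.24 for Xbp1, -0.27 to -0.12 for Atf6, -0.68 to -0.17 for Ern1, 0.81 to 1.36 for Trib3, -1.45 to -0.12 for Chac1 and 0.76 to 1.55 for Asns. The cause was not tested. No paired analysis was possible because the labels carry no replicate numbers. With 3 mice a group, the intervals of Trib3, Chac1 and Asns leave room for differences of 2-fold and more.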

Other observations

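Ctdsp1, the gene whose intron holds Mir26b, had 201.5, 182.5 and 181.8 CPM in KO1 to KO3 and 148.5, 165.9 and 179.5 CPM in WT1 to WT3. The miRNA-26b-/- libraries all lay above the miRNA-26b+/+ libraries, as they did for 5.65% of all genes tested. Ddit3 lies 295.2 kb from Mir26a-2, which encodes miR-26a, and Atf6 lies 96.31 Mb from Mir26b on the same chromosome.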
